A study of Mus musculus with 48 samples.

Results

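Cortical gene expression of APP/PS1 mice given MSX-3 was set against that of WT littermates given the same drug. Members were the cortex arrays that the titles and characteristics place under genotype APP or WT with the agent MSX3, which gave 6 APP/PS1 arrays and 5 WT arrays, 11 of the 48 arrays of the series, each from 1 mouse. A further WT MSX-3 cortex array (replicate 2) was left out because its scanner header records that no spot grid was found. APP/PS1 mice were heterozygous APPswe/PS1dE9 males on a C57Bl6/J background, a line that carries human transgenes with familial Alzheimer mutations, driven by the mouse prion protein promoter, and the WT mice were littermate controls. Both groups drank MSX-3 at 0.3 g/L, a soluble precursor that the body converts to MSX-2, which blocks the adenosine receptor encoded by Adora2a. The sample protocol gives 3 months of age as the start of treatment, whereas the text on the series gives 4 months, and both end it at 9 to 10 months. The contrast is therefore the effect of the genotype in mice that all received the antagonist, and it holds no untreated mouse.

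In these mice human amyloid-beta gathers into plaques, first in the cortex. Microglia around plaques take on a state in which Trem2 and its adaptor Tyrobp signal through immunoreceptor motifs, lysosomal and lipid genes are switched on, and genes such as Cst7, Clec7a and Itgax appear that resting microglia hardly use. Astrocytes near plaques enlarge and make more of the intermediate filament Gfap. The receptor encoded by Adora2a sits mainly on striatal neurons and occurs at lower levels on cortical neurons, astrocytes and microglia.

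Levels are given as the log2 of the background-corrected Agilent signal minus the 75th percentile of the same array, so that 0 is the level of that percentile. A probe was called where limma's moderated test gave a Benjamini-Hochberg adjusted p under 0.05 over all 37680 probes tested and the groups differed at least 1.5-fold. The share of spots well above background was 61.0% to 66.2% on the APP/PS1 arrays and 62.7% to 75.5% on the WT arrays, with means of 63.1 ± 2.37 and 68.1 ± 4.78 (SD, n = 6 and 5), a difference of −4.99 percentage points (two-sided exact permutation p = 0.0281 over 462 arrangements). The APP/PS1 arrays lay on 4 slides and the WT arrays on 3 others, so that slide and genotype cannot be told apart within the contrast. All APP/PS1 arrays and WT replicates 3, 5 and 6 were scanned on 1 day, and WT replicates 1 and 4 on another. Within the first of these days the share of spots well above background differed by −2.09 percentage points (exact permutation p = 0.179), and without WT replicate 4 by −3.14 (exact permutation p = 0.0524). Counts within that day, of 6 arrays against 3, stand beside the lists whose count they change. Levels correlated at 0.965 to 0.993 between any pair of the MSX-3 cortex arrays compared. No limit was set above which a pair would count as 1 library. Most cortical markers stood where the label puts them. The layer gene Cux2 was 2.52 log2 units higher in these cortex arrays than in the hippocampus arrays of the MSX-3 mice and Rspo1 was 3.76 higher, although Bcl11b, which hippocampal neurons also make, lay at −1.70, and the dentate gyrus genes Prox1 and C1ql2 lay at −2.98 and −4.35 relative to hippocampus.

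Of the 37680 probes, 536 were called (1.42%), of which 487 were higher in APP/PS1 (1.29% of all probes) and 49 were lower (0.13%). They stood for 404 named genes, 383 higher and 21 lower, and 64 called probes had no gene name in the tables used. The difference exceeded 4-fold for 59 called probes and 10-fold for 12. In 509 of the called probes no APP/PS1 array overlapped a WT array. Over all probes with a value on every array, 1135 of 37613 (3.02%) separated the groups in this way. The median difference over all probes was −0.03. Within the first scan day 500 probes were called (1.33%), 415 of the 536 among them, and each of the 536 kept its sign there. That day's arrays were part of those that chose the 536, which by itself favours the same sign. Its WT arrays, replicates 3, 5 and 6, all lay on the same slide. With all 4 cortex groups in 1 fit and slide as a block, which the water arrays make possible, 281 were called, 256 of them among the 536. With the array that has no grid left in, 30 were called.

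**Figure D1:**
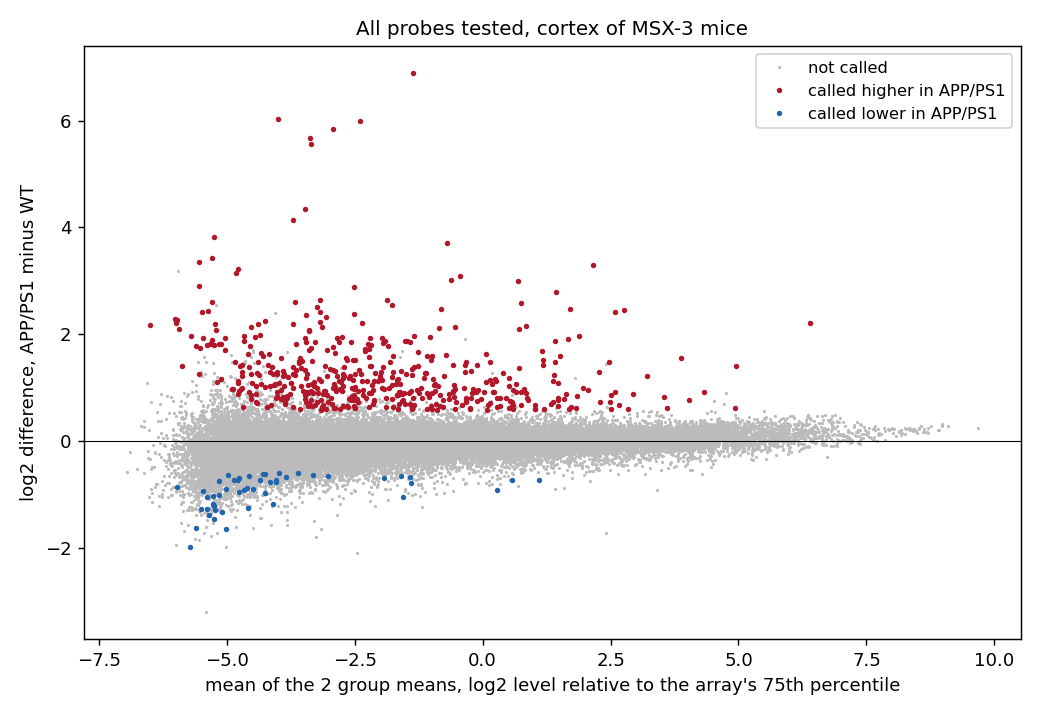
Each point is 1 of 37680 probes, with the mean of the 2 group means on the x axis (log2 level relative to the 75th percentile of the array) and the log2 difference, APP/PS1 minus WT, on the y axis. The 487 probes called higher (red) reach 6.89, and the 49 called lower (blue) gather at the low end of the levels and go no further than −1.97.

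Genes of plaque-associated microglia gave the largest differences. Of the 25 genes listed for this state, 18 were called higher and 0 lower, with a median difference of 1.59, and all 25 differences were above 0. Within the first scan day 18 of 25 were called as well. Cst7, an inhibitor of lysosomal cysteine proteases, lay at 1.84, 2.11 and 2.27 in APP/PS1 (lowest, median and highest array) and at −5.66, −5.01, −4.14, −3.27 and −5.93 in WT replicates 1, 3, 4, 5 and 6. The APP/PS1 arrays were within 1 log2 unit of each other while the WT arrays spread over more than 2, and the WT signal was well above background on only 2 of 5 arrays. The difference was 6.89 ± 0.40 (SE), or 119-fold (limma, adjusted p = 1.49e-06). Clec7a, a receptor for fungal glucans that marks microglia touching plaques, lay at 0.37, 0.56 and 0.92 in APP/PS1 and at −5.6, −6.3, −5, −4.43 and −5.66 in WT, a difference of 5.99 ± 0.27 or 63.5-fold (adjusted p = 3.33e-07). Every APP/PS1 array was far above every WT array, and the WT signal was well above background on 3 of 5 arrays. Itgax, the integrin chain CD11c, lay at −1.11, −0.57 and −0.10 against −7.23, −5.94, −5.63, −5.61 and −6.22, which is 47.0-fold (difference 5.55 ± 0.28, adjusted p = 5.43e-07), with a WT signal above background on 1 of 5 arrays. These groups were also fully apart.

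The signalling pair upstream of this state moved less in log2 terms and with little spread. Tyrobp, the adaptor of Trem2, lay at 3.54, 3.81 and 4.05 in APP/PS1 and at 1.57, 1.36, 1.27, 1.43 and 1.26 in WT, a difference of 2.41 ± 0.11. Trem2, the lipid-sensing receptor itself, rose by 2.46. Both groups were compact and distant from each other for Tyrobp. Other called members were the inhibitory receptor Lilrb4a (4.15), Cd52 (2.58), the lysozyme gene Lyz2 (2.47), the galectin Lgals3 (2.41), the macrophage lysosomal protein Cd68 (2.16), the oxysterol enzyme Ch25h (2.22), the growth factor Igf1 (1.59), the tetraspanin Cd9 (1.51) and the lipoprotein lipase Lpl (1.08). Lilrb4a and Lyz2 have near-identical neighbours in the genome, with which their probes may share signal. Lilrb4a was well above background on 2 of 5 WT arrays. Apoe, the lipid carrier that plaque microglia and astrocytes make, differed by 0.50 with an adjusted p of 0.0364, under the 1.5-fold limit, and the osteopontin gene Spp1 by 0.56, not called. For Csf1 and Cd84 the brightest probe was not called (0.53 and 0.49), while a pair of dimmer probes of each gene were (1.92 and 2.35 for Csf1, 2.20 and 1.93 for Cd84). The 6 genes that the study singled out on its arrays and the 5 it measured by qPCR were called, 6 of 6 and 5 of 5. The study named the first from its water arrays. Whole-tissue RNA cannot tell more cells of a type from more RNA per cell, and this holds for every list below.

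**Figure D2:**
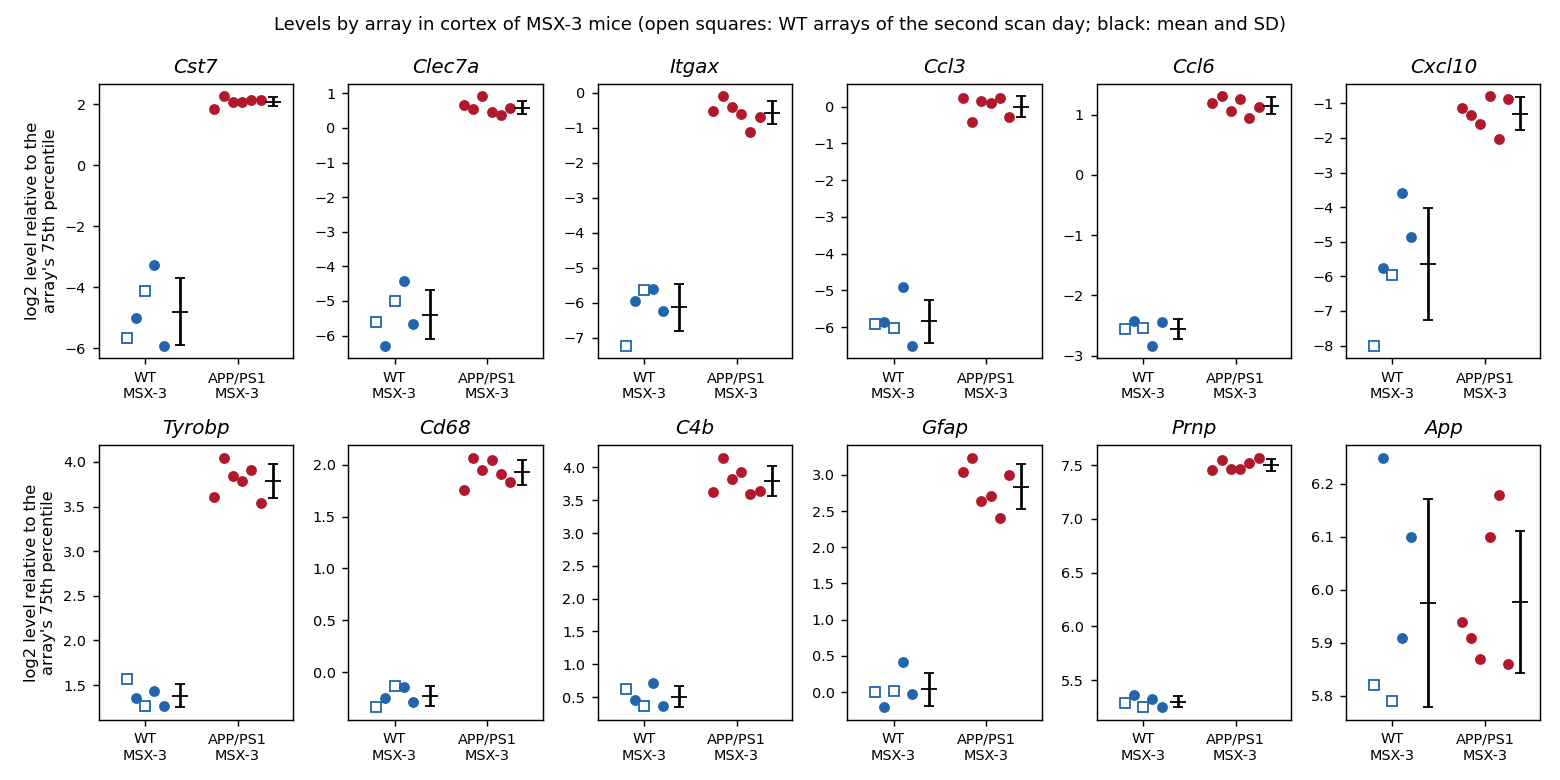
Log2 levels (relative to the 75th percentile of each array) of single genes on each of the 6 APP/PS1 and 5 WT arrays, with points as arrays (open squares for the WT arrays of the second scan day) and black bars as group mean and SD, on a separate y axis for each gene. Clec7a, Cst7 and Tyrobp separate the groups on every array, whereas App lies between 5.79 and 6.25 in both.

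Markers of resting microglia shifted in the same direction by less. Of 18 genes, 8 were called higher and 0 lower, and the median difference was 0.54. The called members included the actin-binding protein Aif1, also named Iba1 (1.12), the receptor Gpr34 (1.06), the growth factor receptor Csf1r (0.91) and the fractalkine receptor Cx3cr1 (0.89). A dimmer probe of Csf1r differed by −0.02 and was not called. The homeostatic purinergic receptor P2ry12 lay at −0.21, −0.04 and 0.07 in APP/PS1 and at −0.64, 0.11, −0.50, −0.66 and −0.30 in WT. These ranges overlapped and the difference of 0.33 ± 0.14 was not called (adjusted p = 0.377). Tmem119 (0.44) and Sall1 (0.43), both restricted to microglia in brain, were not called either. The probe sums of the 25 plaque genes, on a linear scale where 1 is the 75th percentile, ran from 229 to 293 in APP/PS1 and from 130 to 160 in WT, and those of the 18 resting genes from 250 to 315 and from 198 to 248. Linear sums weigh the brightest members most, here Apoe (mean 6.94 in APP/PS1 and 6.45 in WT) and Siglech (7.52 and 7.38). The brightest probes of both genes, which stand for them in the lists, were not called. A dimmer probe of Siglech was called higher, at −1.49 in APP/PS1 and −2.89 in WT (difference 1.4). The list of border macrophage genes, such as Mrc1 and Cd163, had 0 of 6 measured members called and a median of 0.09, with sums of 0.517 to 0.849 against 0.511 to 0.799.

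Receptors that signal through the same motifs rose widely. Of 17 measured genes for Fc receptors and immunoreceptor signalling, 14 were called higher and 0 lower, with a median of 1.13. The common Fc receptor chain Fcer1g lay at 1.97, 2.14 and 2.30 in APP/PS1 and at 0.80, 0.60, 0.73, 0.57 and 0.62 in WT, a difference of 1.48 ± 0.09. The groups did not overlap. The antibody receptors Fcgr2b (1.86), Fcgr3 (1.27), Fcgr4 (1.13) and Fcgr1 (1.13), the phosphatase Ptpn6 (1.88), the exchange factor Vav1 (1.32), the kinase Btk (1.18) and the phospholipase Plcg2 (0.92) were among the called members. Another probe of Ptpn6 differed by −0.17 and was not called. The kinases Syk (0.36) and Lyn (0.22) were not called. Nor was the adaptor Blnk, whose mean difference of 1.44 came from APP/PS1 replicate 5 alone, and this array set the list's highest sum of 377, where the median APP/PS1 array had 19.6 and the WT arrays 10.2 to 11.

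Chemokines gave the next largest differences. Of 15 measured genes 10 were called higher and 0 lower, with a median of 1.22, and 7 of the 22 listed genes were below the filter on dim probes. Ccl3, which draws in monocytes and microglia, lay at −0.43, 0.12 and 0.24 in APP/PS1 and at −5.92, −5.86, −6.01, −4.92 and −6.51 in WT, a difference of 5.85 ± 0.24 or 57.5-fold (limma, adjusted p = 1.91e-07). Its neighbour in function Ccl4 differed by 5.67 ± 0.32 and 6.04 ± 0.32 on its 2 probes. Both genes were well above background on 1 of 5 WT arrays and on every WT array lay far below all APP/PS1 arrays. Ccl6 lay at 0.94, 1.16 and 1.31 against −2.56, −2.43, −2.54, −2.84 and −2.44, a difference of 3.71 ± 0.10 whose adjusted p of 9.66e-09 was the smallest of the plaque microglia list. The WT levels were almost the same on each array. Cxcl10, an interferon-induced attractant of T cells, lay at −2.02, −1.24 and −0.79 in APP/PS1 and at −8.01, −5.75, −5.97, −3.59 and −4.86 in WT, a difference of 4.34 ± 0.61 (adjusted p = 0.00196). Here the WT arrays were widely scattered, though none reached the lowest APP/PS1 array. The WT signal was well above background on 2 of 5 arrays. Ccl5 (1.71), Ccl12 (1.95), Cxcl5 (1.96), Ccl9 (1.22) and Ccl2 (0.95) were called as well, though Ccl2 lost its call in 17 other settings, the first scan day among them (adjusted p = 0.111). The neuronal chemokine Cx3cl1 (0.07) and the stromal Cxcl12 (−0.17) were not.

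Cytokines and their receptors changed little. Of 16 measured genes 3 were called higher and 0 lower, with a median of 0.25, and 1 of the 16 was called within the first scan day and 1 with slide as a block across 4 groups. The called genes were the growth factor Tgfb1 (1.04) and the receptors Tnfrsf1a (0.71) and Il13ra1 (0.64). Il1b differed by 0.34 and Tnf by −0.73, neither called, and Il6, Il1a and Il10 were below the filter. Of 16 measured Toll-like receptor genes and partners 7 were called higher and 0 lower (median 0.41), and 4 with slide as a block across 4 groups. Tlr2, which senses bacterial lipoproteins, lay at −1.62, −1.38 and −0.86 in APP/PS1 and at −3.86, −3.82, −3.82, −3.43 and −3.63 in WT, a difference of 2.39 ± 0.15, with no overlap of the groups. Its partners Tlr1 (1.98) and Tlr6 (1.40) and the co-receptors Cd14 (1.86) and Ly86 (1.91) rose too, while Tlr3, Tlr4, Tlr7 and Tlr9 (0.36, 0.47, 0.02 and −0.24) and the adaptor Myd88 (−0.03) were not called. Tlr1 was well above background on 2 of 5 WT arrays.

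Complement genes rose in part. Of 16 measured genes 8 were called higher and 0 lower, with a median of 0.44. C4b lay at 3.59, 3.73 and 4.15 in APP/PS1 and at 0.63, 0.46, 0.36, 0.71 and 0.36 in WT, a difference of 3.29 ± 0.12, or 9.77-fold. No array of one group came near the other. The near-identical C4a differed by 2.89, and the probes of this pair may share signal. The chains of the first component C1qa (1.59), C1qb (1.43) and C1qc (1.48), the anaphylatoxin receptors C3ar1 (1.38) and C5ar1 (at least 2.39-fold, as no WT array was well above background) and the integrin chain Itgb2 (1.25) were among the other called members. The central component C3 (−0.31) and the proteases C1ra (−0.17) and C1s1 (−0.20) were not called. With slide as a block in a fit of all 4 cortex groups, 5 of 16 complement genes and 9 of 17 Fc receptor and signalling genes were called, and within the first scan day 7 and 13.

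Lysosomal genes rose as a minority of a list whose members otherwise lay slightly above 0. Of 30 genes 13 were called higher and 0 lower, with a median of 0.55. Cathepsin S, encoded by Ctss and used in antigen processing, lay at 4.49, 4.64 and 4.81 in APP/PS1 and at 3.21, 3.1, 3.06, 3.16 and 2.94 in WT, a difference of 1.55 ± 0.09. Ctsd, the aspartic protease, differed by 1.42 ± 0.10. Both separated the groups on every array. The proteases Ctsz (1.29), Ctsh (1.24) and Ctsc (1.22), the glucuronidase Gusb (1.29) and the membrane protein Laptm5 (1.43) were called, whereas the general lysosomal proteins Lamp1 (0.28), Lamp2 (0.22), Psap (0.04) and Npc1 (0.21) were not. Of 18 measured lipid genes 4 were called higher, among them Ch25h, Lpl and Pld4 (0.91), with 5 within the first scan day and 2 with slide as a block across 4 groups. The cholesterol exporters Abca1 (0.21) and Abcg1 (−0.10) were not called.

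Antigen presentation genes rose in both classes. Of 20 genes 10 were called higher and 0 lower, with a median of 0.84, and 8 within the first scan day and 6 with slide as a block across 4 groups. H2-K1, a class I heavy chain, lay at 2.77, 2.93 and 3.09 in APP/PS1 and at 2.26, 2.22, 1.77, 1.92 and 2.22 in WT, a difference of 0.86 ± 0.11 with groups apart. H2-D1 (0.76), which is close to H2-K1 in sequence, the light chain B2m (0.82), the peptide transporter Tap1 (0.94) and the immunoproteasome subunits Psmb8 (1.15) and Psmb9 (0.93) were called. So were the class II invariant chain Cd74 (1.81), the loading factor H2-DMb1 (1.31) and the costimulator Cd86 (1.34). The class II chains H2-Aa (1.26) and H2-Ab1 (1.70) had larger differences than H2-K1 but did not pass the adjusted p.

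Interferon-stimulated genes are switched on by type I interferon through factors such as Stat2 and Irf9, which bind a promoter element with the core GAAANNGAAA. Of 27 measured genes 15 were called higher and 0 lower, with a median of 0.82, with 12 within the first scan day and 8 with slide as a block across 4 groups. Ifi27l2a, a small interferon-induced membrane protein gene, lay at 0.44, 1.10 and 1.72 in APP/PS1 and at −1.57, −1.72, −2.27, −2.39 and −1.99 in WT, a difference of 3.09 ± 0.23. The APP/PS1 arrays spread more than the WT arrays and stayed above them. The DNA sensor gene Ifi204, one of a family of near copies, differed by 2.60. Others called were the RNA-sensing synthetases Oas1a (1.66) and Oasl2 (1.49), the macrophage factor Irf8 (1.62), the antiviral genes Rsad2 (1.56), Bst2 (1.42) and Trim30a (1.33), the brake Usp18 (1.30) and Irf7 (0.92). A dimmer probe of Irf7 differed by 0.39 and was not called. Ifit1 lay at −3.56, −3.08 and −2.39 against −3.90, −3.70, −3.59, −3.92 and −3.58, so that every APP/PS1 array exceeded every WT array, but its difference of 0.71 ± 0.19 had an adjusted p of 0.113. Isg15 (0.76), Stat2 (0.42) and Irf9 (0.45) were not called.

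The promoters of 5 called members that hold the core are shown because their genes rose together here. They come from RefSeq windows on GRCm38.p6 that run from 250 bases before to 50 after the gene start, each written 5′ to 3′ on the strand of its gene, with 1 match of the core (either strand) in capitals.
Oas1a, chr5:120907526-120907564: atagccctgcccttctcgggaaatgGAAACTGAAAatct
Bst2, chr8:71537562-71537621: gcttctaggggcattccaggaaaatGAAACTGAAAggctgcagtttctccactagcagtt
Rsad2, chr12:26456538-26456597: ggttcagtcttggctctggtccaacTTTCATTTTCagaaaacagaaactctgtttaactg
Trim30a, chr7:104465195-104465254: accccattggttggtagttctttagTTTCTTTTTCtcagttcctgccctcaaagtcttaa
Ifit3, chr19:34583382-34583441: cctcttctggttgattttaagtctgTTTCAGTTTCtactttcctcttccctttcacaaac
The core occurred in the windows of 5 of 10 called interferon genes that had a window and in 6 of 9 that were measured, had a window and were not called, and in 943 of 27025 windows over all genes, 3.49%. Such a match is a string of letters and not a measured binding site.

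**Figure D3:**
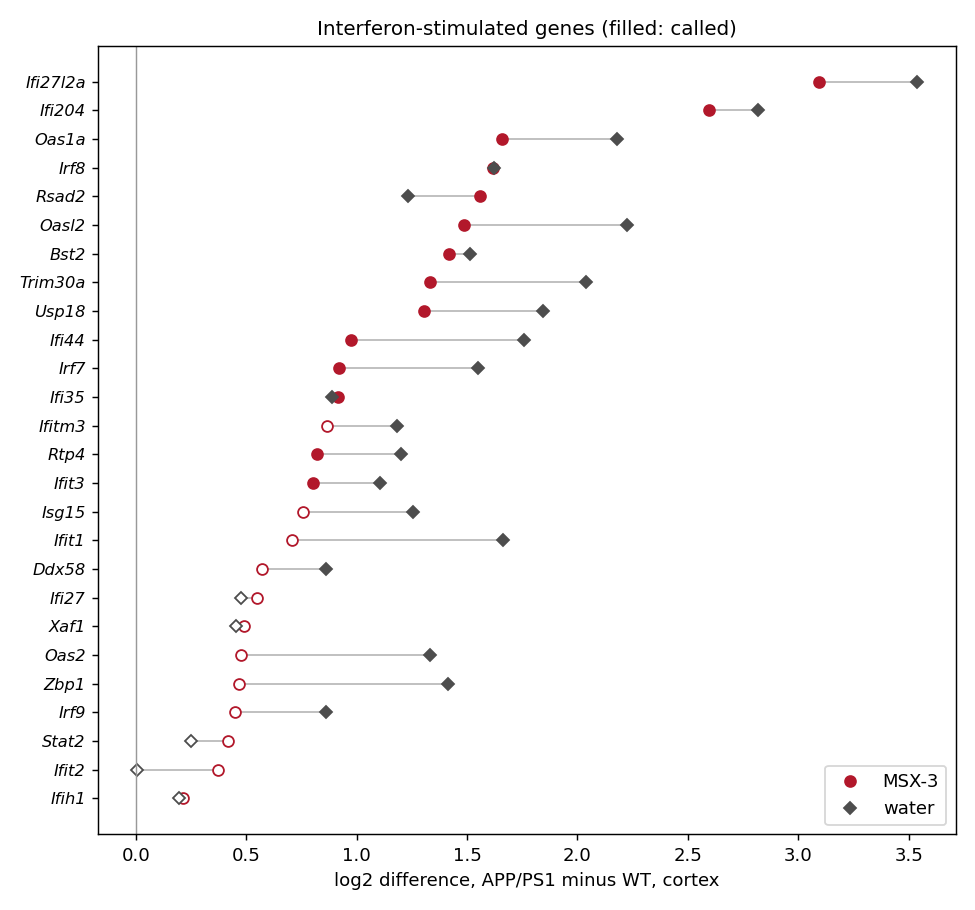
Log2 differences, APP/PS1 minus WT, of 26 of the 27 interferon-stimulated genes in cortex (x axis), with circles for MSX-3 mice and diamonds for water mice, filled where called. Ifi27l2a and Ifi204 are highest in both, and Ifit1, Oas2 and Zbp1 show the widest gaps between the markers.

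Astrocytes changed in their reactive genes. Gfap, on its NM_001131020 probe, lay at 2.40, 2.85 and 3.24 in APP/PS1 and at 0.00, −0.21, 0.01, 0.42 and −0.02 in WT, a difference of 2.80 ± 0.16 or 6.96-fold, and a second probe differed by 3.00. No WT array approached the lowest APP/PS1 array. Of 19 measured reactive genes 7 were called higher and 0 lower (median 0.21), with 4 within the first scan day and 3 with slide as a block across 4 groups. Beside Gfap these were the cytokine receptor Osmr (1.20), Cd44 (1.09), the asparaginase Aspg (1.03), the secreted inhibitor Serpina3n (0.92), the filament Vim (0.75) and Stat3 (0.73). A dimmer probe of Stat3 differed by 0.10 and was not called. The stress protein Lcn2 differed by −1.09 without a call. General astrocyte markers had 0 of 15 called and a median of 0.11, with sums of 405 to 511 in APP/PS1 and 384 to 428 in WT. Aqp4, the water channel of astrocyte endfeet, differed by 0.43 (adjusted p = 0.178).

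Lists for neurons and other cells held no called member. Excitatory neurons and synapses had 0 of 20 called and a median of 0.02, with Camk2a at 0.10, Dlg4 at 0.04, Snap25 at −0.05 and Slc17a7 at −0.22, and sums of 529 to 600 in APP/PS1 and 505 to 595 in WT. Inhibitory neurons had 0 of 14 (median −0.05), oligodendrocytes 0 of 15 (0.17), their precursors 0 of 8 (0.17), and endothelium and pericytes 0 of 14 (−0.08). Lymphocytes and neutrophils had 0 of 9 measured genes called, where Cd3e lay at −0.22 and S100a8 at 0.01. Blood genes, in brains that the study perfused with saline, had 0 of 7 called and a median of −0.55, which was 0.03 within the first scan day. The haemoglobin gene Hba-a1 lay at 2.76, 3.36 and 6.41 in APP/PS1 and at 5.56, 3.69, 4.97, 3.21 and 4.35 in WT, and its highest value was that of 1 APP/PS1 array. The choroid plexus list had 0 of 6 measured genes called, with sums of 0.485 to 5.41 against 0.92 to 2.74.

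Activity-dependent and clock genes had medians below 0 without a call. Immediate early genes had 0 of 14 called and a median of −0.25. Fos lay at −0.76, 0.00 and 2.13 in APP/PS1 and at 0.27, 0.27, 1.63, 1.47 and 0.51 in WT, a difference of −0.66 ± 0.48, and its highest array was an APP/PS1 one, replicate 2. Without that replicate the list median was −0.53. Circadian clock genes had 0 of 13 called, with 12 of 13 differences below 0 and a median of −0.29, and 1 was called lower without APP/PS1 replicate 2. Per2 lay at −0.23, 0.11 and 1.16 in APP/PS1 and at 0.70, 1.19, 1.61, 1.04 and 1 in WT, a difference of −0.84 ± 0.24 (adjusted p = 0.144). Most APP/PS1 arrays were under all WT arrays. The stress-response factor Atf3 (1.63) was the called member among 12 genes of protein folding stress, in which the chaperone Hspa5 lay at −0.15 and Ddit3 at 0.01.

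**Figure D4:**
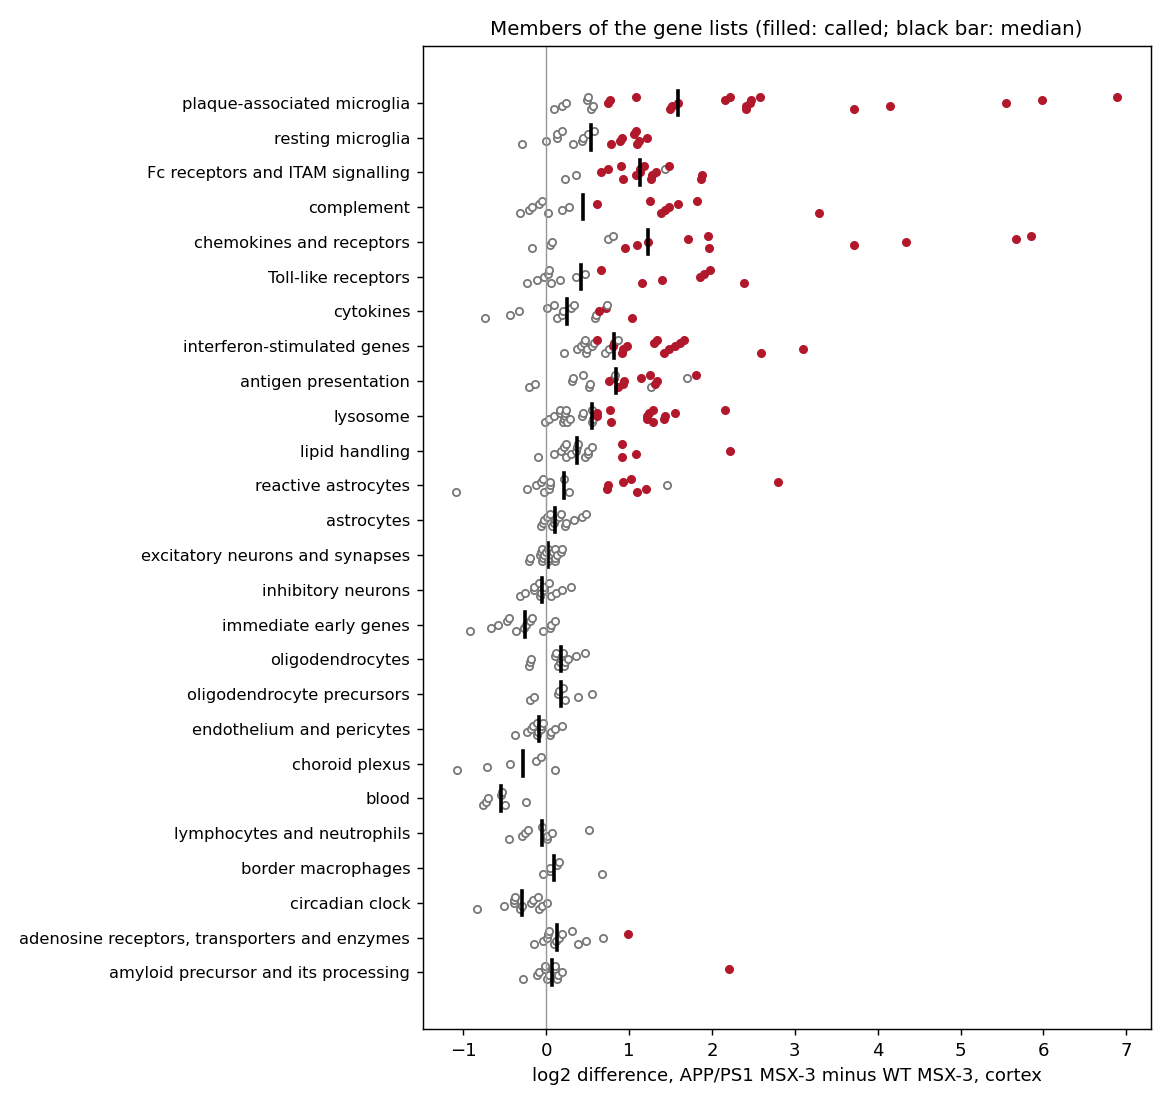
Log2 differences, APP/PS1 minus WT, of the measured members of each gene list in cortex of MSX-3 mice, with each point 1 gene, filled where called, and bars at the list median. Microglial, chemokine, interferon and antigen presentation lists lie to the right of 0, with medians of 0.54 to 1.59, and those of neurons and oligodendrocytes are centred within 0.2 of it.

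The drug target itself was not called. Adora2a lay at −3.26, −2.77 and −2.46 in APP/PS1 and at −3.19, −2.48, −2.36, −2.48 and −2.62 in WT. The groups overlapped, and the difference was −0.15 ± 0.17 (limma, adjusted p = 0.752). Among 14 adenosine genes 1 was called, Adora3, the A3 receptor of microglia, which lay at −1.68, −1.56 and −1.13 in APP/PS1 and at −2.50, −2.55, −2.60, −2.33 and −2.35 in WT (0.99 ± 0.11, adjusted p = 0.000429). Its groups were apart. The A1 receptor Adora1 (0.12), the AMP-cleaving enzyme Nt5e (0.02) and the ATP-cleaving Entpd1 (0.68) were not called.

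Among amyloid precursor genes and their enzymes 1 of 14 was called. App lay at 5.86, 5.93 and 6.18 in APP/PS1 and at 5.82, 6.25, 5.79, 5.91 and 6.10 in WT, a difference of 0.00 ± 0.11, and whether this probe takes up the human transgene was not tested. Prnp, the prion protein gene, lay at 7.45, 7.49 and 7.57 against 5.29, 5.36, 5.25, 5.33 and 5.25 on 1 probe, a difference of 2.20 ± 0.07 (adjusted p = 2.52e-08), and its other probe differed by 0.02. The first probe split the groups with almost no spread. Whether it takes up transcript of the transgenes, which the prion protein promoter drives, was not tested. The secretase Bace1 (0.10), Adam10 (−0.02) and the amyloid-degrading proteases Mme (−0.28) and Ide (−0.09) were not called.

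Genes lower in APP/PS1 were few and faint. The 49 probes had a median WT level of −4.18, where all probes had −1.55, and 16 of them were well above background on none of the 6 APP/PS1 arrays. None of the 33 lists held one. Slc17a1, a phosphate transporter gene, lay at −7.50, −6.83 and −5.84 in APP/PS1 and at −5.07, −5.23, −3.97, −4.60 and −4.83 in WT. As no APP/PS1 array was well above background, this was at least 1.24-fold lower (measured difference −1.97, limma, adjusted p = 0.0053). On the same basis Fut2 was at least 1.20-fold, Olfr1006 at least 1.38-fold, Gm28905 at least 1.31-fold and AI507597 at least 1.14-fold lower. For Adgrg2 (measured difference −0.86) the bound was 0.72, so on this basis it was not shown to be lower. Cd6, a T cell surface receptor, had signal in both groups and lay at −0.56, −0.12 and 0.00 in APP/PS1 and at 0.39, 1.18, 0.67, 0.50 and 0.97 in WT, a difference of −0.92 ± 0.15 (adjusted p = 0.00752). Its ranges were apart. Mmel1, a relative of neprilysin, fell by 0.78 ± 0.16 (adjusted p = 0.0289). Gcn1 was called lower on 1 of 4 probes, with the other 3 at −0.07, 0.17 and −0.11, and Gm28905 on 1 of 2, with the other at −0.24. The call of Gm28905 was lost in 20 other settings. Of the 49 probes, 21 were called within the first scan day. The count of lower probes was 24 without WT replicate 6, 170 without WT replicate 1, and 4 with slide as a block in a fit of all 4 cortex groups.

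Among genes higher in APP/PS1, 22 probes were well above background on no WT array and 394 on all 5. Gm11545, which no list held, was of the first kind and was at least 4.50-fold higher. Hcar2, a receptor for ketone bodies and niacin, differed by 3.44 ± 0.50, but was well above background on only 1 of 5 WT arrays. WT replicate 6 lay at −4.59 and the other WT arrays at −8.09 to −7.09, below all APP/PS1 arrays (−3.67 to −3.43).

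The same genotypes on plain water, 6 APP/PS1 and 5 WT cortex arrays that share no array with the MSX-3 groups, gave 559 called probes (1.48%). They included 390 of the 536, 72.8% of the MSX-3 calls and 69.8% of the water calls, and none ran the opposite way. WT water replicate 3 was left out, as its header also records no grid. WT water replicates 4, 5 and 6 and APP/PS1 water replicate 1 were scanned on the second day. As under MSX-3, that day held more WT than APP/PS1 arrays, and its part in the overlap was not tested. Of the 487 probes called higher under MSX-3, 485 were above 0 on water, with a median of 1.05 there and 1.08 under MSX-3. Of the 49 called lower, 41 were below 0 on water, 5 were called, and the medians were −0.28 on water and −0.88 under MSX-3. Both sets were chosen by their call under MSX-3, which by itself favours the larger difference there. The difference between both genotype effects was called for 0 of 37680 probes (0%) by limma's interaction term, with 1794 at an unadjusted p under 0.05 and a smallest adjusted p of 0.744. Clec7a differed by 5.99 under MSX-3 and 5.5 on water, Cst7 by 6.89 and 6.83, Gfap by 2.80 and 2.69, and C4b by 3.29 and 3.26. Adora3 was called under both.

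Interferon genes had a lower median under MSX-3 (0.82) than on water (1.26), with 15 and 22 of 27 called. The interaction for 9 of the 27 had an unadjusted p under 0.05, all lower under MSX-3, against 1794 of all 37680 probes. None of the 9 passed adjustment over all probes. They were measured on the same arrays and are not independent results. Ifit1 differed by 0.71 under MSX-3 and 1.66 on water, with an interaction of −0.96 ± 0.31 (limma, adjusted p = 0.744). Zbp1, a nucleic acid sensor, showed 0.47 and 1.41, and Oas2 showed 0.48 and 1.33. Ifi27l2a (3.09 and 3.54) and Irf8 (1.62 and 1.62) were called in both.

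In the hippocampus of MSX-3 mice, 6 arrays a genotype and mostly from the same animals, 120 of 38128 probes were called (0.315%), 119 of them higher. Of these calls 112 were shared with cortex, 20.9% of the cortex calls and 93.3% of the hippocampus calls. Among the 471 probes called higher in cortex that were also tested in hippocampus, 466 had the larger difference in cortex, with medians of 1.07 and 0.50. These probes were chosen by their call in cortex, which by itself favours the larger value there. A direct test of the tissues called 68 of 39065 probes (0.174%), all of them with a larger genotype effect in cortex, and 43 when mouse was a block, 34 of which were among the 68. With 1 mouse left out the count was 37 to 94, lowest without APP/PS1 replicate 3. In cortex no slide held both genotypes, whereas in hippocampus some slides did. Neither slide nor scan day was a block in the test of the tissues, so their part in these counts was not tested. Among named genes whose gap was called, the widest were those of Ccl4 (6.04 in cortex and 3.40 in hippocampus), C4b (3.29 and 0.78), Gfap (3.00 and 0.75), C4a (2.89 and 0.77) and Clec7a (5.99 and 4.02). The gap for Gfap was 2.25 ± 0.20 (limma, adjusted p = 2.83e-06). Prnp differed by 2.20 and 1.77, a gap that was not called (adjusted p = 0.0914).

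**Figure D5:**
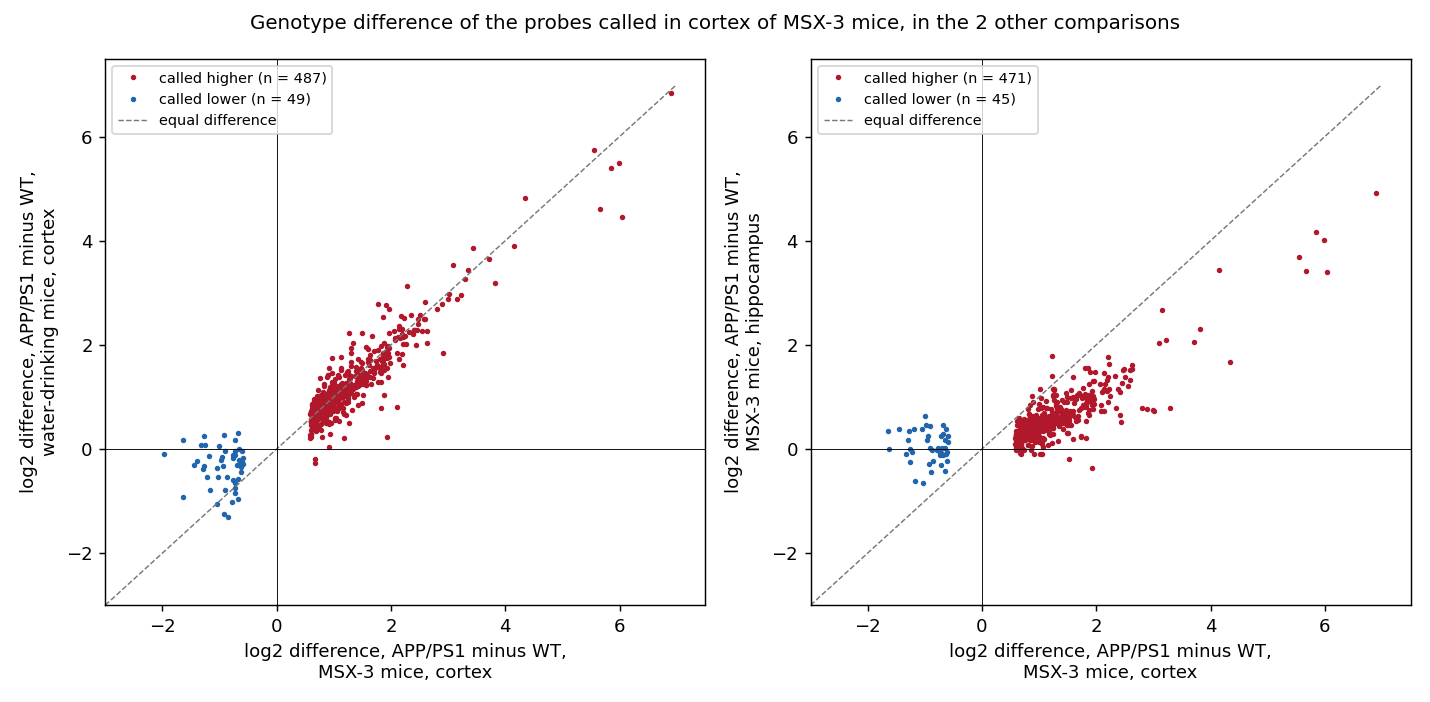
Log2 differences, APP/PS1 minus WT, of probes called in cortex under MSX-3 (x axis) against the same difference on water in cortex and under MSX-3 in hippocampus (y axes), with the line of equality. Higher probes (red) follow the line against water, where medians of the higher probes are 1.08 and 1.05, and of those tested in hippocampus 466 of 471 higher probes lie below it, with medians of 1.07 and 0.50. Of 49 lower probes (blue), 41 lie below 0 on water. The probes were chosen by their call on the x axis, which by itself favours the larger difference there.

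Within the APP/PS1 mice, no relation of Clec7a with 4 other readouts passed an exact test over 6 animals. Its level on cortex arrays had Pearson's r = 0.146 with Gfap (two-sided exact permutation p = 0.789, Spearman's rho 0.257, p = 0.658), −0.467 with Ifi27l2a (exact permutation p = 0.351, rho −0.657, p = 0.175), −0.368 with Prnp (exact permutation p = 0.507, rho −0.20, p = 0.714) and 0.184 with hippocampal Clec7a (exact permutation p = 0.704, rho 0.143, p = 0.803). Adjusted over these 4 relations the p of r was 0.789 for each and that of rho 0.70 to 0.803. Without the 2 animals farthest from the median Clec7a level, r was 0.537, −0.948, −0.0927 and 0.693 in that order. These values rest on the few animals left and were not tested, so no relation is read from them.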

How the data were processed

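Total RNA of cortex was labelled with Cy3 and hybridised to 60-mer 8x60K Agilent arrays, 1 mouse each. The authors deposited scanner output with intensity per spot (gProcessedSignal, background-corrected by Agilent Feature Extraction 10.7.3.1), not yet normalized between arrays. The deposited series matrix held the same signal, with all 3022848 values equal to the scanner output. As an alternative its log2 was used with flagged spots kept. Groups follow the sample labels. Control and flagged spots were left out, log2 intensity was taken minus the 75th percentile of each array, spots of a probe were averaged, and probes were kept that the scanner flagged as clearly above background in 4 or more arrays of at least 1 of the 4 cortex groups, water included. APP/PS1 and WT were compared with limma 3.58.1 in R 4.3.3, with Benjamini-Hochberg adjustment and a 1.5-fold minimum, the thresholds of the study's methods. The number of arrays limits the precision. A gene in a list stands by its brightest probe. For a probe below background on all arrays of a group, the fold is a bound against the lowest signal well above background. The fit was tested on simulated data.

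Named genes were those the study names, its drug target and transgenes, the 10 largest changes each way without overlap, the first 2 and up to 4 best called members of each list, and the leading genes of each difference test; other list members and Blnk were named after their values were seen. Members and lists were chosen with earlier results of these data known. RefSeq named 32994 of the probes, 59 took their name from the study's supplement, and 23552 had none. Alternatives were the background correction, normalization, filter, model, batch blocks and each array left out. Tissues of a mouse are paired by the animal number in the titles. Over 11 mice their deviations correlated at −0.296 to 0.395, above 0.1 in 7. Within a genotype the best match was the own mouse for 4 of the 11, so the pairing rests on the labels. Mx1, Hbb-bs, Ly6g and Rorb were not analysed here, and some genes are not reported here.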

Additional observations from a re-analysis of the deposited data

Results flagged for a closer look

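A single array stood apart from the rest of its group for 11 of 232 groups of named probes examined, and chance alone flags about 1 in 20 groups. WT replicate 6 was high for Hcar2 (−4.59, others −8.09 to −7.09), WT replicate 4 for Olfr1006 (−3.49, others −5.10 to −4.77), WT replicate 3 for Fcgr1 (−1.89, others −3.24 to −2.90) and WT replicate 1 for Aqp4 (0.37, others 0.24 to 0.27). Hcar2 was well above background on only 1 of 5 WT arrays. APP/PS1 replicate 5 was low for Cd6 (−0.56, others −0.20 to 0.00) and Il13ra1 (−1.69, others −1.44 to −1.30). APP/PS1 replicate 2 was high for Il1b (−3.69, others −4.77 to −4.64) and Fos (2.13, others −0.76 to 0.22). APP/PS1 replicate 6 was low for Cd14 (−0.76, others −0.50 to −0.37), replicate 1 high for Ifit2 (−1.99, others −3.09 to −2.70) and replicate 3 high for Drd2 (−3.67, others −5.55 to −5.00).

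The genotype effect differed between cortex and hippocampus of MSX-3 mice by limma's test of the difference for 68 probes. Neither slide nor scan day was a block in that test. Among named genes it was larger in cortex by 2.63 for Ccl4, 2.51 for C4b, 2.25 for Gfap, 2.12 for C4a and 1.97 for Clec7a.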

How the results depend on the processing

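Called probes (536) ranged from 373 to 697 over the other backgrounds, normalizations, filters, models and blocks, and from 458 to 669 with 1 array left out, apart from the following. With the array without a grid left in, 30 were called, 30 higher and 0 lower, and Fcgr1 turned to −0.141. With all 4 cortex groups in 1 fit and slide as a block, 281 were called, 277 higher and 4 lower, and Olfr1006 turned to 0.0356. Slide as a fixed block within the pair of groups was not run, since no slide held both. The 49 lower probes became 6 with normexp, 21 with an intensity trend, 136 with array weights, 20 with slide as a random block, 22 with scan day as a block, 24 without WT replicate 6 and 170 without WT replicate 1. Of 63 named probes called higher, 52 kept the call in all 27 settings that leave out the array without a grid, and of 10 called lower, 0 did. The 68 probes that differed between tissues became 43 with mouse as the replicate block, which pairs the tissues of an animal, and 37 to 94 with 1 mouse left out, with 37 without APP/PS1 replicate 3, 42 without APP/PS1 replicate 2, 44 without APP/PS1 replicate 4 and 45 without WT replicate 5. The difference in spots well above background ran from −6.36 to −3.14 percentage points, the latter without WT replicate 4 (exact permutation p = 0.0524). The correlation of Clec7a with Prnp turned to 0.432 under quantile normalization. The cause of these changes was not tested. Signal over background limits the lower probes, 16 of which had none in APP/PS1.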
